A study of Mus musculus with 9 samples.

Results

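Connexins are the subunits of gap junctions, channels that join the cytoplasm of neighbouring cells and let ions and small metabolites pass. The 9 connexin genes described here were taken by symbol from the 21899 genes measured: Gja1, Gjb6 and Gjb2 of astrocytes (Gjb2 and Gjb6 also of the meninges), Gjb1 and Gjc3 of oligodendrocytes, Gjd2 of neurons, and Gjc1, Gja4 and Gja5 of vessels. RNA was sequenced from the PVT (paraventricular nucleus of the thalamus, near the midline) of wild-type mice in 3 groups of 3 libraries. LPS 7d mice were killed 7 days, and LPS 1d mice 1 day, after lipopolysaccharide (LPS, a bacterial cell wall component) was injected into the peritoneal cavity, and PBS 1d mice 1 day after injection of phosphate-buffered saline. PBS at day 7 was not analysed here, so day and LPS cannot be told apart where LPS 7d is set against PBS 1d. Strain, age and sex are not given in the labels, nor whether each library came from its own animal. The p-values therefore speak of library-to-library spread, which may be technical.

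Astrocytes are coupled into networks mainly by Gja1 (connexin of the alpha class), with Gjb6 and, at lower level, Gjb2 as their beta-class partners. Oligodendrocytes express Gjb1, whose channels pair with astrocyte connexins, and Gjc3, which is found along myelin. Gjd2 forms the electrical synapses of neurons, for instance between GABAergic interneurons and in the inferior olive of the hindbrain. Gja4 and Gja5 couple endothelial cells, Gja5 chiefly in arteries, and Gjc1 couples smooth muscle cells and pericytes. In tissue RNA, fewer cells of a type and less RNA per cell cannot be told apart.

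The libraries held 13211422 to 17210526 gene counts, and all 9 connexin genes passed the filter on low counts. All 7 markers of thalamus and PVT were detected, with summed levels of 689 to 717 CPM (counts scaled to a common library size, with TMM factors) in LPS 7d, 720 to 727 CPM in LPS 1d and 818 to 836 CPM in PBS 1d. The 8 striatal markers summed to 543 to 557 CPM in LPS 7d, 824 to 841 CPM in LPS 1d and 1260 to 1310 CPM in PBS 1d. The 9 cerebellar markers summed to 1270 to 1280 CPM in LPS 7d, 177 to 184 CPM in LPS 1d and 209 to 217 CPM in PBS 1d. For the 8 hindbrain markers the sums were 65.8 to 71.4, 0.997 to 1.85 and 0.696 to 1.23 CPM, and Hoxa5, Hoxb5, Hoxc4 and Hoxd4 had no count in LPS 1d or PBS 1d. Y-linked Ddx3y, Eif2s3y, Uty and Kdm5d summed to 90.5 to 102 CPM in LPS 7d and 81.5 to 85.2 CPM in LPS 1d, against 0 to 0.0588 CPM in PBS 1d. LPS and this Y-linked difference cannot be told apart in either comparison with PBS 1d, nor time after LPS and the cerebellar and hindbrain transcripts in either comparison of LPS 7d. The same holds for LPS and the lower summed striatal and thalamic markers in either comparison with PBS 1d. In LPS 1d against PBS 1d, 7 of the 8 striatal markers fell and none rose, and of the 7 thalamus and PVT markers 6 fell and 1 rose.

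Promoter windows of Gjb6, Gjb2 and Gjb1 are shown because, in LPS 1d against PBS 1d, Gjb6 and Gjb2, neighbours on the same strand, rose and Gjb1 fell. Each runs from 250 bases before to 50 bases after an annotated start site, 5′ to 3′ on the gene's strand (RefSeq, GRCm38.p6). Capitals mark the SOX motif ACAAAG and the TATA box TATAAA, and all other letters are lower case.
Gjb6 (chr14:57133562-57133861, minus strand): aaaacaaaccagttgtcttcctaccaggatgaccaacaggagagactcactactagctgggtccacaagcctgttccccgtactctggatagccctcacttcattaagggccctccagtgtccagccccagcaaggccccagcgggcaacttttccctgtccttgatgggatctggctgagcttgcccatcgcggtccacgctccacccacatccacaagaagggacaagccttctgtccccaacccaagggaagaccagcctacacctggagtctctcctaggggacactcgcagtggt
Gjb2 (chr14:57104653-57104952, minus strand): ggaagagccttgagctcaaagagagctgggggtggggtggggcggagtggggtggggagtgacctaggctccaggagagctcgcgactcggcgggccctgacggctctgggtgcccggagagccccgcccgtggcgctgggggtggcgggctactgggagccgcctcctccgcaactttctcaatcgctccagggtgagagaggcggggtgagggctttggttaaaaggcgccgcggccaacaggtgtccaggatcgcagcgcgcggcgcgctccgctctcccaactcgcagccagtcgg
Gjb1, first start site (chrX:101376126-101376425, plus strand): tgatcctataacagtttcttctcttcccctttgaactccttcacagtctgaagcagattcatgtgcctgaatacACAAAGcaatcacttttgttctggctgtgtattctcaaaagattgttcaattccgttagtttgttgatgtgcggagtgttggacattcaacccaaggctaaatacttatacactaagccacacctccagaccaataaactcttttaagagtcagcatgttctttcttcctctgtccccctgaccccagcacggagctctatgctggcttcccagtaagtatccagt
Gjb1, last start site (chrX:101383482-101383781, plus strand): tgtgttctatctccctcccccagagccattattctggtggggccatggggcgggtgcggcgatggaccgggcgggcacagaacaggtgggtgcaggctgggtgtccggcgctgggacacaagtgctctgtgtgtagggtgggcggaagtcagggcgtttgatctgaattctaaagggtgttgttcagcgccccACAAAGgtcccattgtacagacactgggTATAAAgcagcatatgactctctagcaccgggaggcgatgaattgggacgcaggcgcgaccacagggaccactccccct
A set of 6 motifs was searched on both strands of the 11 windows found for 8 of the 9 genes: TTCNNNGAA (STAT), the NF-kB motif, ACANNNTGT (glucocorticoid receptor), CACGTG (E-box), and the SOX motif and TATA box given above. ACAAAG began 176 bases before the first and 57 bases before the last of the 4 annotated Gjb1 start sites, and TATAAA 29 bases before the last. The Gja5 window, not shown, also held ACAAAG, 125 bases before its start site. Of all 32851 windows of this length, 18.7% hold ACAAAG and 13.6% hold TATAAA, so both are common letters. The Gjb6 and Gjb2 windows held none of the 6 motifs, which says only that these letters are absent there; TTCNNNGAA occurs in 8.3%, the NF-kB motif in 1.63%, ACANNNTGT in 6.85% and CACGTG in 7.15% of all windows. The Gjb2 window held 27 CpG dinucleotides and the Gjb6 window 6, against a median of 7 over all windows.

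One day after LPS, 3 of the 9 connexin genes rose, 3 fell and 3 did not pass the test (edgeR quasi-likelihood, adjusted p under 0.05 over all genes tested), and the groups did not overlap for 6. Of the 14837 genes tested in LPS 1d against PBS 1d, 49.1% were called, 24.9% higher and 24.2% lower, and 54.5% did not overlap. With 6 of 9 called, the share of connexin genes was higher, but 9 genes are few and the shares were not compared by a test. Gjb2, Gjb6 and Gjc1 were the genes that rose, and Gjb1, Gjc3 and Gja1 those that fell. At 7 days 5 rose against PBS 1d, none fell and 4 did not pass, with 5 not overlapping. There 35.6% of all genes were called and 44.2% did not overlap, with 2489 genes higher and 2798 lower (3183 and 2326 with plain library totals in place of TMM). In LPS 7d against LPS 1d, 4 connexin genes were higher, 3 lower and 2 did not pass, and 7 did not overlap, where 56.6% of all genes were called and 60.6% did not overlap. Both comparisons with PBS 1d share the same PBS libraries, and both comparisons of LPS 7d share the LPS 7d libraries. The median log2 fold change of the 9 genes was -0.04 for LPS 1d against PBS 1d, 0.28 for LPS 7d against PBS 1d and 0.28 for LPS 7d against LPS 1d, beside medians of -0.00986, 0.00226 and -0.00109 over all genes tested.

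**Figure D1:**
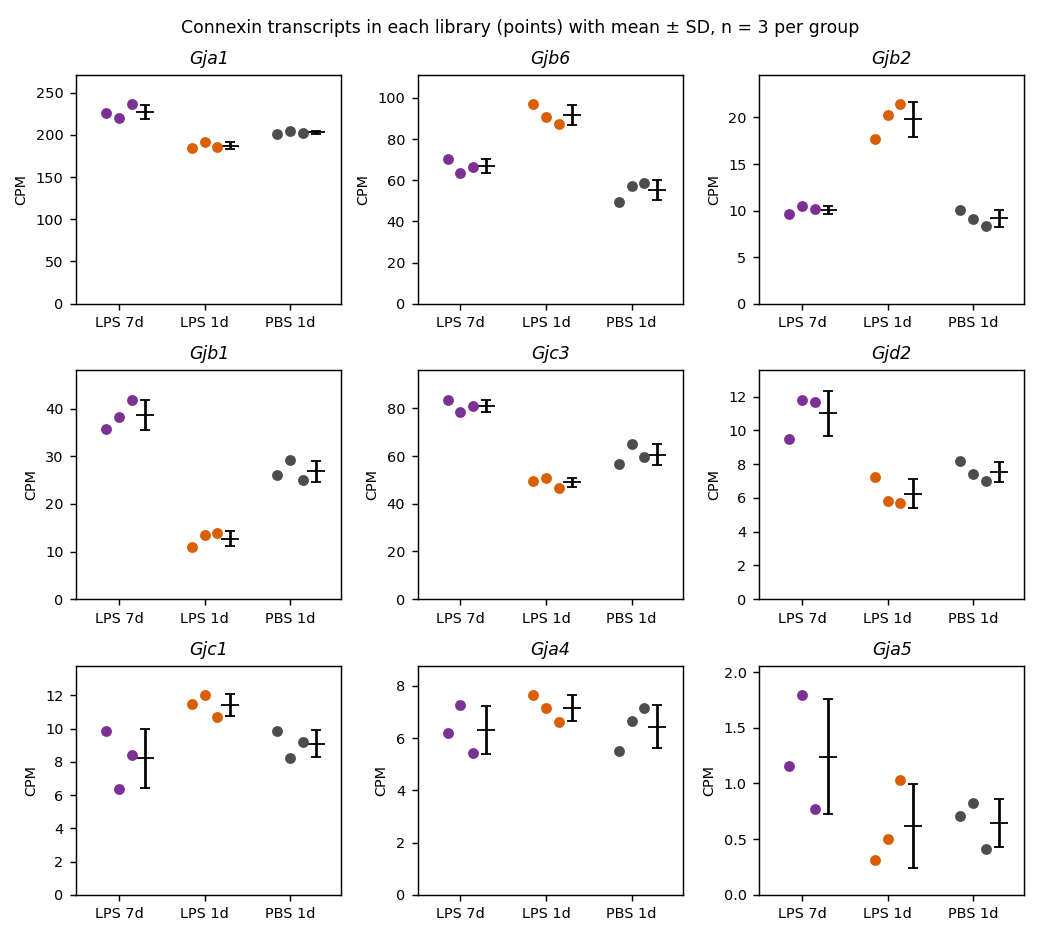
Levels of the 9 connexin genes in CPM (y axes, from 0) in the 3 libraries of LPS 7d, LPS 1d and PBS 1d (points), with mean ± SD beside them (n = 3 per group). Gjb6 and Gjb2 are highest in LPS 1d, where Gjb1 and Gjc3 are lowest; for Gja4 and Gja5 all 3 groups overlap.

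Gja1, the main astrocyte connexin, lies on chromosome 10 (56253426 to 56278609, GRCm39). It had 226, 220 and 236 CPM in LPS 7d, 184, 191 and 185 CPM in LPS 1d and 201, 205 and 202 CPM in PBS 1d. The 3 groups did not overlap, with LPS 7d above and LPS 1d below PBS 1d. The changes were small, with a log2 fold change of -0.12 ± 0.04 for LPS 1d against PBS 1d (SE, edgeR adjusted p = 0.0137), 0.17 ± 0.04 for LPS 7d against PBS 1d (adjusted p = 0.000726) and 0.28 ± 0.04 for LPS 7d against LPS 1d (adjusted p = 3.68e-08). The fall at 1 day no longer passed without LPS 1d replicate 3 (log2 fold change -0.11, edgeR adjusted p = 0.0539).

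Gjb6, an astrocyte connexin of the same networks, lies on chromosome 14 (57360760 to 57371068, GRCm39). It had 70.2, 63.7 and 66.5 CPM in LPS 7d, 96.8, 90.8 and 87.4 CPM in LPS 1d and 49.4, 57.4 and 58.4 CPM in PBS 1d. All LPS 1d libraries were above all LPS 7d libraries, which were above all PBS 1d libraries. The level rose 1.67-fold at 1 day (log2 fold change 0.74 ± 0.06, edgeR adjusted p = 5.97e-15) and was still 1.22-fold that of PBS 1d at 7 days (0.28 ± 0.06, adjusted p = 0.000157), lower than at 1 day (-0.45 ± 0.06, adjusted p = 2.54e-09).

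Gjb2, the neighbour of Gjb6 on the minus strand, lies 18600 bases from it (57336057 to 57342159), with 1 gene model between them. Its levels were 9.62, 10.5 and 10.2 CPM in LPS 7d, 17.7, 20.3 and 21.4 CPM in LPS 1d and 10.1, 9.11 and 8.32 CPM in PBS 1d. The LPS 1d libraries stood apart from both other groups, which overlapped. Gjb2 rose 2.16-fold at 1 day (log2 fold change 1.11 ± 0.11, edgeR adjusted p = 6.27e-12), the widest rise among the 9 genes. In LPS 7d it was lower than in LPS 1d (-0.98 ± 0.11, adjusted p = 6.64e-11), and against PBS 1d it did not pass (0.13 ± 0.12, 95% interval -0.11 to 0.37, adjusted p = 0.418).

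Taken within each library, the ratios of Gjb6 and Gjb2 to Gja1 in tissue RNA were higher in LPS 1d than in PBS 1d. Which cells these transcripts came from was not tested. In FPKM, which scale counts by gene length, Gjb6 was 1.19, 1.11 and 1.08 times Gja1 in LPS 7d, 2.02, 1.82 and 1.81 times in LPS 1d and 0.943, 1.08 and 1.11 times in PBS 1d. LPS 1d stood above both other groups, which overlapped. The mean ratio in LPS 1d was 1.81 times that in PBS 1d, and for Gjb2 over Gja1 it was 2.34 times (0.453 ± 0.0408 in LPS 1d against 0.193 ± 0.0198 in PBS 1d). Gjb2 over Gjb6 overlapped between LPS 1d and PBS 1d (0.242 ± 0.035 and 0.187 ± 0.036). The pairs were picked with the values already known. The deposited length of Gja1 (10257 bases) is the union of the exons of 8 annotated transcripts, the longest of which has 3889 bases in GENCODE M21. With the longest transcript of each gene as its length, Gjb6 was 0.543 ± 0.0284, 0.908 ± 0.0574 and 0.502 ± 0.0423 times Gja1 in LPS 7d, LPS 1d and PBS 1d. Which of the 2 is more abundant per length thus depends on the gene model. Another length scales every library by the same factor, so it could not alter the fold between groups. A change of transcript use between groups was not tested.

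Astrocyte markers moved beside these genes. Of 12 homeostatic astrocyte markers 7 rose, 3 fell and 2 did not pass in LPS 1d against PBS 1d (median log2 fold change 0.15), and their summed level was 6160 to 6240 CPM in LPS 7d, 6070 to 6110 CPM in LPS 1d and 5460 to 5510 CPM in PBS 1d. All 8 reactive astrocyte markers, Gfap among them, rose at 1 day (median 2.13, sums of 1080 to 1120 CPM in LPS 1d and 266 to 275 CPM in PBS 1d) and summed to 377 to 391 CPM in LPS 7d. As a log2 difference from the mean of the 12 homeostatic markers in the same library, Gjb6 stood at -1.48 ± 0.09 in LPS 1d and -2.10 ± 0.14 in PBS 1d, 0.63 higher and without overlap. Gja1 on that scale stood at -0.45 ± 0.04 in LPS 1d and -0.22 ± 0.01 in PBS 1d, 0.23 lower and again without overlap. In LPS 7d Gjb6 stood at -2.11 ± 0.07 and overlapped with PBS 1d, so its higher CPM at 7 days was not seen relative to these markers. Gja1 stood at -0.345 ± 0.052 in LPS 7d, 0.12 lower than in PBS 1d without overlap, although its CPM was higher. Meningeal fibroblasts also express Gjb2 and Gjb6: 6 of 8 tested markers of fibroblasts and meninges rose at 1 day and none fell, and the 9 listed summed to 100 to 105 CPM in LPS 7d, 129 to 139 CPM in LPS 1d and 75.6 to 79.7 CPM in PBS 1d. The median log2 fold change of the 8 at 1 day was 0.76, beside 0.74 for Gjb6 and 1.11 for Gjb2. Relative to the mean of the 8, Gjb2 stood at 0.92 ± 0.17 in LPS 1d and 0.41 ± 0.18 in PBS 1d without overlap. Gjb6 was not set against the mean of these markers. The part of meningeal fibroblasts in the rise of either gene was not tested.

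**Figure D2:**
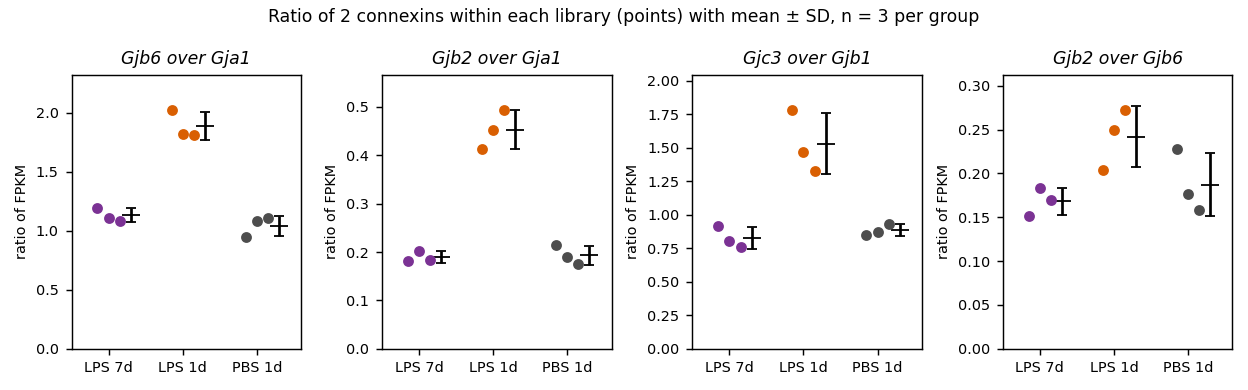
Ratio of the FPKM of 2 connexin genes (y axes, from 0) within each library of LPS 7d, LPS 1d and PBS 1d (points), with mean ± SD (n = 3 per group). Gjb6 and Gjb2 over Gja1 and Gjc3 over Gjb1 are highest in all 3 LPS 1d libraries, while Gjb2 over Gjb6 overlaps between LPS 1d and PBS 1d.

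Gjb1, the oligodendrocyte connexin whose human gene is mutated in X-linked Charcot-Marie-Tooth disease, had the widest swing of the 9 genes over time after LPS. It lies on the X chromosome (100419984 to 100429235, GRCm39) and had 35.7, 38.3 and 41.8 CPM in LPS 7d, 10.9, 13.5 and 13.8 CPM in LPS 1d and 26, 29.3 and 25 CPM in PBS 1d. The groups did not overlap, with LPS 1d lowest and LPS 7d highest. Gjb1 fell to 0.479 of its PBS level at 1 day (log2 fold change -1.06 ± 0.10, edgeR adjusted p = 2.31e-13). At 7 days it was 1.44-fold that of PBS 1d (0.53 ± 0.08, adjusted p = 5.61e-07) and 3.01-fold that of LPS 1d (1.59 ± 0.09, adjusted p = 8.59e-21). Y-linked transcripts were present in LPS 7d and LPS 1d and near 0 in PBS 1d, and the cerebellar markers summed to 1270 to 1280 CPM in LPS 7d, 177 to 184 CPM in LPS 1d and 209 to 217 CPM in PBS 1d; their part in the differences of Gjb1 was not tested.

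Gjc3, which encodes a connexin of myelin, lies on chromosome 5 (137951723 to 137961360, GRCm39). Its levels were 83.5, 78.3 and 80.8 CPM in LPS 7d, 49.6, 50.6 and 46.8 CPM in LPS 1d and 56.6, 65.2 and 59.6 CPM in PBS 1d, in the same order of groups as Gjb1 and again without overlap. The fall at 1 day was smaller (log2 fold change -0.30 ± 0.06, edgeR adjusted p = 3.94e-05). At 7 days Gjc3 was higher than in PBS 1d (0.42 ± 0.06, adjusted p = 2.35e-08) and than in LPS 1d (0.72 ± 0.06, adjusted p = 2.53e-15). Gjc3 over Gjb1, in FPKM, was 0.826 ± 0.0829 in LPS 7d, 1.53 ± 0.229 in LPS 1d and 0.886 ± 0.043 in PBS 1d, with all LPS 1d libraries above both other groups.

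Most markers of mature oligodendrocytes moved in the same direction as Gjb1. In LPS 1d against PBS 1d 10 of 13 fell, 2 rose and 1 did not pass (median log2 fold change -0.30), and in LPS 7d against PBS 1d 10 rose, none fell and 3 did not pass (median 0.29). In LPS 7d against LPS 1d 12 were higher and 1 was lower (median 0.59). The marker with the widest fall at 1 day was Opalin (-0.87 ± 0.10), an oligodendrocyte membrane protein, and Mobp, a myelin protein, rose (0.33 ± 0.03). The 13 markers summed to 10100 to 10600 CPM in LPS 7d, 7510 to 7520 CPM in LPS 1d and 7590 to 7930 CPM in PBS 1d. As a log2 difference from the mean of the 13 markers in the same library, Gjb1 stood at -2.45 ± 0.13 in LPS 7d, -3.48 ± 0.19 in LPS 1d and -2.71 ± 0.08 in PBS 1d, and the groups did not overlap. The LPS 1d value of Gjb1 was thus 0.77 below that of PBS 1d, while Gjc3 overlapped between these groups (-1.54 ± 0.07 in LPS 1d and -1.53 ± 0.07 in PBS 1d). With the median of the 13 markers in place of their mean, Gjc3 was 0.17 lower and Gjb1 0.93 lower in LPS 1d than in PBS 1d.

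**Figure D3:**
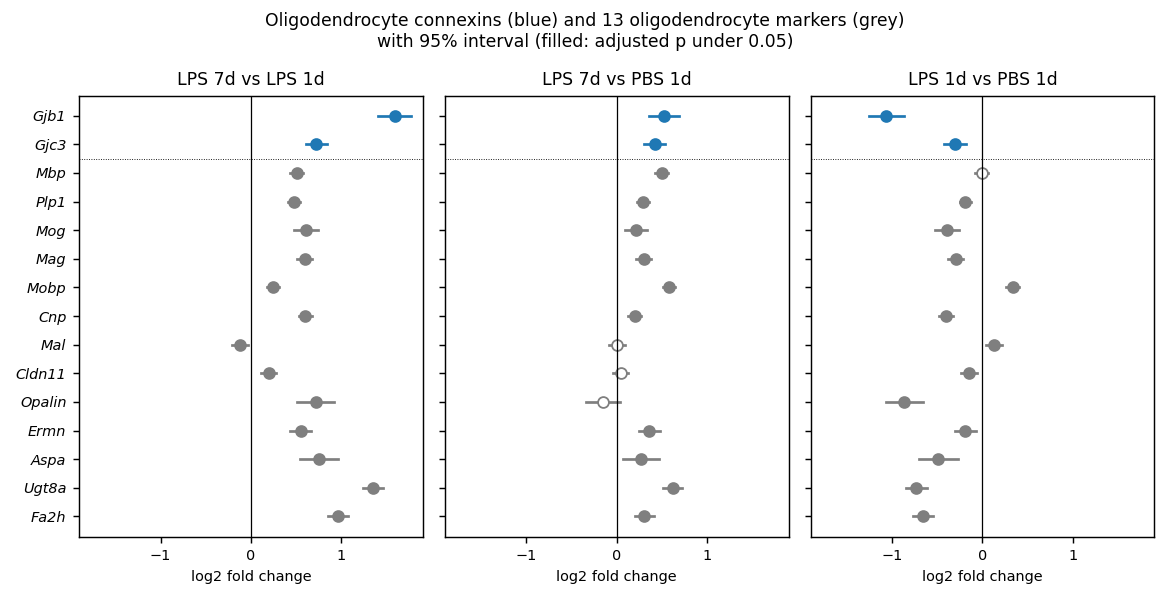
Log2 fold change (x axes) with 95% interval of the oligodendrocyte connexins Gjb1 and Gjc3 (blue) and of 13 markers of mature oligodendrocytes (grey) in the 3 comparisons, filled where the edgeR adjusted p is under 0.05. In LPS 1d against PBS 1d Gjb1 lies at -1.06, below the -0.87 of Opalin, the lowest marker.

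Gjd2, the connexin of electrical synapses, lies on chromosome 2 (113840082 to 113844100, GRCm39). It had 9.5, 11.8 and 11.7 CPM in LPS 7d, 7.25, 5.79 and 5.72 CPM in LPS 1d and 8.17, 7.4 and 7.02 CPM in PBS 1d. All LPS 7d libraries were above the others, and LPS 1d overlapped with PBS 1d. At 7 days Gjd2 was higher than in PBS 1d (log2 fold change 0.55 ± 0.13, edgeR adjusted p = 0.000907) and than in LPS 1d (0.83 ± 0.14, adjusted p = 1.46e-06). The difference of LPS 1d from PBS 1d did not pass (-0.28 ± 0.15, 95% interval -0.58 to 0.01, adjusted p = 0.109), but did without LPS 1d replicate 1 (-0.39, edgeR adjusted p = 0.0465). General neuronal markers summed to 5650 to 5780 CPM in LPS 7d, 5830 to 5870 CPM in LPS 1d and 5660 to 5770 CPM in PBS 1d, and relative to their mean Gjd2 was 0.48 higher in LPS 7d than in PBS 1d on the log2 scale, without overlap. Of 5 GABAergic markers, Gad1, Gad2 and Sst fell in LPS 7d against PBS 1d, Slc32a1 did not pass and Pvalb rose (median log2 fold change -0.14), and the 5 summed to 1080 to 1120 CPM in LPS 7d, 1040 to 1060 CPM in LPS 1d and 1210 to 1220 CPM in PBS 1d. Pvalb, a calcium buffer of fast-spiking interneurons and cerebellar neurons, had 118 ± 3.5 CPM in LPS 7d, 26.9 ± 1.71 CPM in LPS 1d and 26.4 ± 2.53 CPM in PBS 1d. All 8 tested cerebellar and all 6 tested hindbrain markers were higher in LPS 7d than in PBS 1d; their part in the higher Gjd2 was not tested.

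Among the vessel genes only Gjc1 passed the test in any comparison. Gjc1, a connexin of smooth muscle and pericytes (chromosome 11, 102690405 to 102710526, GRCm39), had 9.87, 6.36 and 8.4 CPM in LPS 7d, 11.5, 12 and 10.7 CPM in LPS 1d and 9.87, 8.23 and 9.2 CPM in PBS 1d. The LPS 1d libraries were above all others, and LPS 7d overlapped with PBS 1d. The rise at 1 day had a log2 fold change of 0.32 ± 0.13 (edgeR adjusted p = 0.0394). That call was lost with DESeq2 (adjusted p = 0.103), with upper-quartile factors (edgeR adjusted p = 0.0553) or plain library totals (0.0506), and without any one of LPS 1d replicates 1 and 2 and PBS 1d replicates 2 and 3 (edgeR adjusted p = 0.0776, 0.131, 0.161 and 0.0624). In LPS 7d Gjc1 was lower than in LPS 1d (-0.47 ± 0.13, edgeR adjusted p = 0.00231, and 0.0522 without LPS 7d replicate 2), and against PBS 1d it did not pass (-0.15 ± 0.14, adjusted p = 0.427). Of 10 tested markers of pericytes and smooth muscle 4 rose and none fell in LPS 1d against PBS 1d, and 5 rose and none fell in LPS 7d against PBS 1d, with sums of 425 to 437, 317 to 334 and 300 to 310 CPM in LPS 7d, LPS 1d and PBS 1d. Relative to the mean of the 10, Gjc1 was 0.68 lower in LPS 7d than in LPS 1d on the log2 scale, without overlap. Both LPS groups overlapped with PBS 1d on that scale. Which cells the Gjc1 transcripts came from was not tested.

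Gja4, an endothelial connexin (chromosome 4, 127205214 to 127207832, GRCm39), had 6.19, 7.28 and 5.44 CPM in LPS 7d, 7.63, 7.16 and 6.63 CPM in LPS 1d and 5.52, 6.64 and 7.16 CPM in PBS 1d. The 3 groups overlapped. The log2 fold change was 0.15 for LPS 1d against PBS 1d (95% interval -0.16 to 0.46, edgeR adjusted p = 0.436), -0.03 for LPS 7d against PBS 1d (-0.34 to 0.28, adjusted p = 0.913) and -0.18 for LPS 7d against LPS 1d (-0.49 to 0.13, adjusted p = 0.335). Endothelial markers split at 1 day, with 5 of 11 up, 3 down and 3 not passed. In LPS 7d against PBS 1d 6 were up, 1 down and 4 not passed. The 11 summed to 469 to 489 CPM in LPS 7d, 475 to 491 CPM in LPS 1d and 437 to 442 CPM in PBS 1d. The tight junction gene Cldn5 had 38.1 ± 1.49 CPM in LPS 7d, 32.3 ± 4.51 CPM in LPS 1d and 19.5 ± 2.4 CPM in PBS 1d. Itm2a, which fell at 1 day, had 41.7 ± 4.36, 19.1 ± 1.22 and 38.4 ± 2.87 CPM in these groups. Relative to the mean of the 11 markers, Gja4 in both LPS groups overlapped with PBS 1d.

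Gja5, the arterial connexin (chromosome 3, 96812009 to 96984732, GRCm39), was the rarest of the 9, with 19, 29 and 13 counts in LPS 7d, 4, 8 and 17 counts in LPS 1d and 12, 13 and 6 counts in PBS 1d. The groups overlapped. At this depth no difference passed the test. The log2 fold change was 0.92 for LPS 7d against PBS 1d (95% interval 0.06 to 1.78, edgeR adjusted p = 0.0909), 0.96 for LPS 7d against LPS 1d (0.08 to 1.83, adjusted p = 0.0563) and -0.04 for LPS 1d against PBS 1d (-1.03 to 0.95, adjusted p = 0.956). The differences of LPS 7d passed without LPS 7d replicate 3 (1.17, edgeR adjusted p = 0.0399 against PBS 1d, and 1.21, adjusted p = 0.0225 against LPS 1d), and that against LPS 1d also without LPS 1d replicate 3 (1.57, adjusted p = 0.0141). The Gja5 model overlaps Gpr89 on the other strand, and whether counting used strand is not given in the sources used here. Of 7 arterial markers 2 rose and 1 fell at 1 day, and their sums were 114 to 123, 124 to 139 and 128 to 134 CPM in LPS 7d, LPS 1d and PBS 1d.

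**Figure D4:**
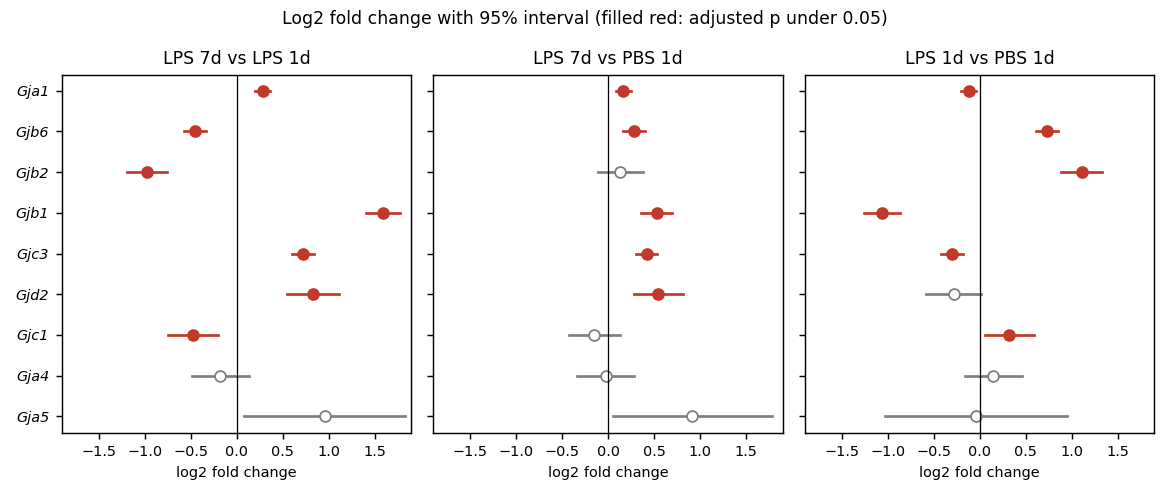
Log2 fold change (x axes) of each connexin gene with its 95% interval in the 3 comparisons, filled red where the edgeR adjusted p is under 0.05. Gjb1 lies at 1.59, 0.53 and -1.06 in the panels from left to right, and the intervals of Gja4 include 0 in all 3 panels.

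Per gene length, Gjb6, Gja1, Gjb1 and Gjc3 made up most of the connexin transcripts of the 9 genes. The summed FPKM was 104 ± 1.96 in LPS 7d, 86.7 ± 1.34 in LPS 1d and 81.6 ± 3.8 in PBS 1d, with LPS 7d above the others and LPS 1d, at 85.2 to 87.8, overlapping with PBS 1d, at 77.8 to 85.4. Gjb6 held 24.5% ± 1.19 of that sum in LPS 7d, 38.9% ± 1.72 in LPS 1d and 25.1% ± 1.6 in PBS 1d. For Gjb1 the share was 22.2% ± 1.47 in LPS 7d, 8.47% ± 1.1 in LPS 1d and 19.1% ± 1.11 in PBS 1d. Gja1 held 21.7% ± 0.311, 20.6% ± 0.378 and 24.1% ± 0.79 in LPS 7d, LPS 1d and PBS 1d, a share that rests on its long deposited gene model. The order of the mean FPKM differed between groups. In LPS 7d it was Gjb6 (25.5), Gjb1 (23.1), Gja1 (22.6), Gjc3 (19), Gjb2 (4.29), Gjd2 (3.91), Gja4 (3.82), Gjc1 (1.68) and Gja5 (0.221). In LPS 1d it was Gjb6 (33.7), Gja1 (17.9), Gjc3 (11.1), Gjb2 (8.09), Gjb1 (7.33), Gja4 (4.17), Gjc1 (2.24), Gjd2 (2.13) and Gja5 (0.105). In PBS 1d it was Gjb6 (20.5), Gja1 (19.6), Gjb1 (15.6), Gjc3 (13.8), Gja4 (3.8), Gjb2 (3.79), Gjd2 (2.6), Gjc1 (1.81) and Gja5 (0.112). The place of Gja1 in these orders, after Gjb6 and in LPS 7d after Gjb1, depends on the gene model, as given above for the ratio of Gjb6 to Gja1. The summed FPKM and the shares of all 9 genes rest on the same deposited lengths. Among neighbours in these orders, the libraries overlapped between Gjb6 and Gjb1, Gjb1 and Gja1, Gjb2 and Gjd2, and Gjd2 and Gja4 in LPS 7d. In LPS 1d they overlapped between Gjb2 and Gjb1 and between Gjc1 and Gjd2. In PBS 1d they overlapped between Gjb6 and Gja1, Gjb1 and Gjc3, and Gja4 and Gjb2. The shares of 9 genes sum to the whole, so one cannot rise without another falling.

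Among other connexins and the pannexins, which are related large-pore channels, Panx2, Panx1 and Gjd3 passed the filter on low counts and fell in LPS 1d against PBS 1d. Panx2, a neuronal pannexin, had 164 ± 6.13 CPM in LPS 7d, 115 ± 2.39 CPM in LPS 1d and 138 ± 1.65 CPM in PBS 1d. Panx1, an ATP release channel, had 16.8 ± 1.21 CPM in LPS 7d, 18.4 ± 0.16 CPM in LPS 1d and 23.1 ± 2.51 CPM in PBS 1d, and Gjd3 had 34 counts in all in LPS 7d, 16 in LPS 1d and 48 in PBS 1d. In LPS 7d against PBS 1d Panx2 rose (0.25 ± 0.04, edgeR adjusted p = 7e-06), Panx1 fell (-0.45 ± 0.09, edgeR adjusted p = 8.73e-05) and Gjd3 did not pass. Among 16 genes whose proteins bind or modify connexins, 4 rose, 6 fell and 6 did not pass in LPS 1d against PBS 1d. In LPS 7d against PBS 1d 1 rose, 10 fell and 5 did not pass. Of all genes tested, 24.9% rose and 24.2% fell in LPS 1d against PBS 1d. For LPS 7d against PBS 1d these shares were 16.8% and 18.9%, and the shares were not compared by a test. Tjp1, the junction scaffold that binds the tail of the Gja1 protein, did not pass at 1 day (0.04 ± 0.05, adjusted p = 0.543) and fell at 7 days (-0.17 ± 0.05, adjusted p = 0.00368), and Cnst, a sorting receptor of connexins, fell at 1 day (-0.22 ± 0.05, adjusted p = 0.000806).

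Likeness to a gene was measured as the root mean square difference of centred log2 CPM over the 9 libraries, among 11695 genes with a mean of at least 5 CPM. Among the 3 nearest to Gjb1 were Paqr6, a membrane receptor gene (0.14), and Serpinb1a, a protease inhibitor (0.154), beside a deviation of 0.673 of Gjb1 from its own mean. Nearest to Gjb6 were Chic2 (0.0547), Nampt, an enzyme of NAD synthesis (0.0642), and Stom, a membrane scaffold (0.0679), beside a deviation of 0.314 for Gjb6 itself. For Gjc3 they were Btbd3 (0.0499), the co-chaperone Fkbp4 (0.0506) and the actin-bundling gene Pls1 (0.0596), and for Gja1 they were Zscan26 (0.0251), the splicing factor Hnrnph1 (0.0297) and the translation factor Eif2d (0.0336). Small differences are common for genes that vary little, so these values rank genes for one connexin and do not compare connexins.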

How the data were processed

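RNA sequencing counts of 9 libraries of PVT tissue from wild-type mice were analysed. Per the labels' protocols, RNA came from a Trizol extraction and went into TruSeq libraries. The deposited values are raw gene counts and FPKM; TopHat2, HISAT2, HTSeq and GRCm39 are named in the submitters' processing notes, without versions, roles or a strand setting. Deposited FPKM equal the deposited counts divided by gene length and library total to within 1.58e-07 of their size. The other deposited columns used, lengths and positions, were taken unchanged. Deposited lengths of the 9 genes equal the exon unions of GENCODE M21.

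The members and lists were chosen with earlier results of these data known. Of 21899 genes, 14837 passed filterByExpr and were fitted with edgeR 4.0.16 (R 4.3.3) by quasi-likelihood, using TMM factors of 0.983 to 1.03 and fitting 3 group means to the 9 libraries; the common biological coefficient of variation was 4.15%, with 6 residual and 43.4 prior degrees of freedom. Tests were two-sided, and a gene was called at a Benjamini-Hochberg adjusted p under 0.05 over the 14837 genes. SE is the size of the log2 fold change divided by the square root of F. Levels relative to markers use log2 CPM with a prior count of 2 and carry no test. Named genes are the 9 members, list members called in any comparison or with the highest level, and the 3 genes nearest to each of the 4 members with the highest FPKM; marker genes named beside them were chosen after their values were seen. Alternatives were DESeq2 1.42.0, other scalings and filters, a replicate block, fits of 2 groups and fits without each library. The procedure was tested on simulated counts. Precision is limited by 3 libraries per group. Some genes of the lists are not reported here.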

Additional observations from a re-analysis of the deposited data

How the results depend on the processing

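The number of genes called stayed within 1.5 times of that reported in all 3 comparisons under every alternative run, as did the number of connexin genes called (5 or 6 of 9 for LPS 1d against PBS 1d, 5 or 6 for LPS 7d against PBS 1d and 6 to 8 for LPS 7d against LPS 1d). Gjb6, Gjb2, Gjb1, Gjc3 and Gjd2 kept the direction and call of each difference called for them in all alternatives, and Gja1 did except for the fall at 1 day given above. Directions turned only where no call was made. Gja5 in LPS 1d against PBS 1d had a log2 fold change of -0.65 to 0.24 with 1 library left out, Gjc1 in LPS 7d against PBS 1d of -0.30 to 0.003, and Gja4 in LPS 7d against PBS 1d of -0.14 to 0.07 and, with plain library totals, of 0.012. Gja5 in LPS 7d against LPS 1d passed with plain library totals (1.01, edgeR adjusted p = 0.0415) and in the fit of the 2 groups alone (0.97, adjusted p = 0.0477). Replicate numbers do not pair the libraries, with correlations of same-numbered deviations of -0.0232 to 0.027; a replicate block left 6, 5 and 7 connexin genes called, and 7144, 5139 and 8270 genes in all, for LPS 1d against PBS 1d, LPS 7d against PBS 1d and LPS 7d against LPS 1d. With the median of a marker list in place of its mean, 26 of 39 relative levels moved by more than the replicate SD. Gjb6 relative to astrocyte markers was 0.93 lower in LPS 7d than in LPS 1d (0.64 with the mean), Gjb1 relative to oligodendrocyte markers 0.93 lower in LPS 1d than in PBS 1d, and Gja1 in LPS 7d against LPS 1d turned from 0.11 with the mean to -0.19 with the median. Counts limit Gja5 most.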
